A study of Mus musculus with 7 samples.

Results

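The 57 genes described here encode proteins of insulin, mTOR and FoxO signalling: ligands, IGF binding proteins, receptors, adaptors, PI3K subunits, lipid phosphatases, the AKT arm, the TSC and mTOR proteins, the Rag GTPase branch that senses amino acids, AMPK with its activating kinase, S6 and ULK kinases, and FoxO transcription factors. They were taken as a fixed list of symbols, which was chosen with earlier results of these data known. The symbols were looked up in the gene name columns of an m6A peak table for muscle and an m6A peak table for C2C12 cells. Of the 57 genes, 35 were listed in muscle, 23 in C2C12 and 15 in both, while 14 were listed in neither. The muscle table held 3975 gene symbols and the list for C2C12 held 3969 genes.

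Both tables come from m6A MeRIP-Seq, in which fragmented poly(A) RNA is pulled down with an anti-m6A antibody (IP) and sequenced beside the RNA that was put in (input). Muscle was collected on day 2 after cardiotoxin (CTX) had been injected into the tibialis anterior of C57BL/6 mice. The METTL3 cKO mice were Pax7CreERT2; METTL3 flox/flox and the CTL mice were Pax7CreERT2; METTL3 wt/wt, so both carried the Cre, and tamoxifen was given to induce it. C2C12, an established mouse myoblast line, gave 2 IP libraries and 1 input library, and muscle gave 1 IP and 1 input library for each genotype. The Cre is driven by Pax7, so METTL3 was to be lost in muscle stem cells, whereas the labels give muscle as the source of the RNA and muscle stem cell as its cell type. The labels of both C2C12 IP libraries carry the genotype Knockout and the label of the input carries Normal. Their titles name no genotype, and the C2C12 table was therefore read as a list of peaks with no genotype attached. Whether a library pools animals or cultures was not given in the sources used here.

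METTL3 is the catalytic subunit of the complex that writes m6A onto mRNA, mostly in the sequence context GGAC and often around stop codons and in 3′UTRs. In muscle, insulin and the IGFs act on receptor tyrosine kinases, whose adaptors recruit PI3K. PI3K turns on AKT, which relieves the TSC brake on mTORC1 and keeps FoxO factors out of the nucleus, so that protein synthesis is favoured over atrophy gene expression, while AMPK acts on mTORC1 in the opposite direction when energy is low.

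The muscle table has 1 fold enrichment per peak, computed over the cKO and CTL libraries together, beside the authors' own comparison of the genotypes, which was not used here. It lists only peaks that had passed a test of difference between the genotypes. A gene missing from it may carry a peak that was not called different, may lack a peak, or may have been expressed too little for one. A listed gene may likewise carry further peaks that were not called different. No value in either table belongs to a single library, no counts were given, and the depth is unknown, so no spread between replicates and no test between genotypes could be computed from them. The size of a peak is given as its fold enrichment, the ratio of IP over input signal. All values are descriptions of these libraries.

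The pathway genes were listed more often than genes at large in both tables. Because they were chosen with earlier results of these data known, these shares describe the list and test nothing. A listing in muscle is a peak called different between genotypes, and a listing in C2C12 is any peak given there. In muscle, 61.4% of the 57 genes were listed, against 16.9% of the 21900 protein-coding genes of the RefSeq annotation. In C2C12 the share was 40.4% against 17.6%, and 26.3% were in both tables against 7.31%. The background includes genes that neither muscle nor C2C12 cells express, which could not be removed because no expression values were at hand. Of the muscle-listed pathway genes 42.9% were also in C2C12, close to the 40.6% of all muscle-listed genes. Of the C2C12-listed pathway genes 65.2% were also in muscle, against 40.7% of all C2C12-listed genes.

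The counts by role are small and are to be read against the background of 16.9% in muscle and 17.6% in C2C12. All 3 receptors, both lipid phosphatases, 8 of 10 TSC and mTOR genes, 3 of 4 genes of the amino acid branch, 3 of 4 AMPK and LKB1 genes and 6 of 9 adaptors were listed in muscle. None of the 3 FoxO genes and none of the 4 S6 and ULK kinase genes was listed there, which at this background is no result about these roles, and Foxo1, Foxo3, Rps6kb1 and Ulk2 were listed in C2C12. The 14 genes in neither table were the ligand gene Igf2, the binding protein gene Igfbp4, the adaptor gene Gab2, the PI3K genes Pik3cb, Pik3r2 and Pik3r3, Akt2, Tsc2, Rheb, Depdc5, Prkaa2, Rps6kb2, Ulk1 and Foxo4.

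The 35 muscle genes held 54 peaks. Taking each gene at its strongest peak, the median fold enrichment was 15.9 (lowest 2.9, quartiles 7.37 and 70.35, highest 507), against 19.3 (quartiles 6.875 and 75.95) for all listed genes. A fold enrichment of 214, which 10.1% of all listed genes reached, was reached by 4 of the 35 pathway genes (11.4%), namely Igf1r, Insr, Pik3r1 and Ddit4. The pathway genes were thus spread over the range of the table in much the same way as other listed genes, with the insulin and IGF1 receptors near its upper end.

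**Figure D1:**
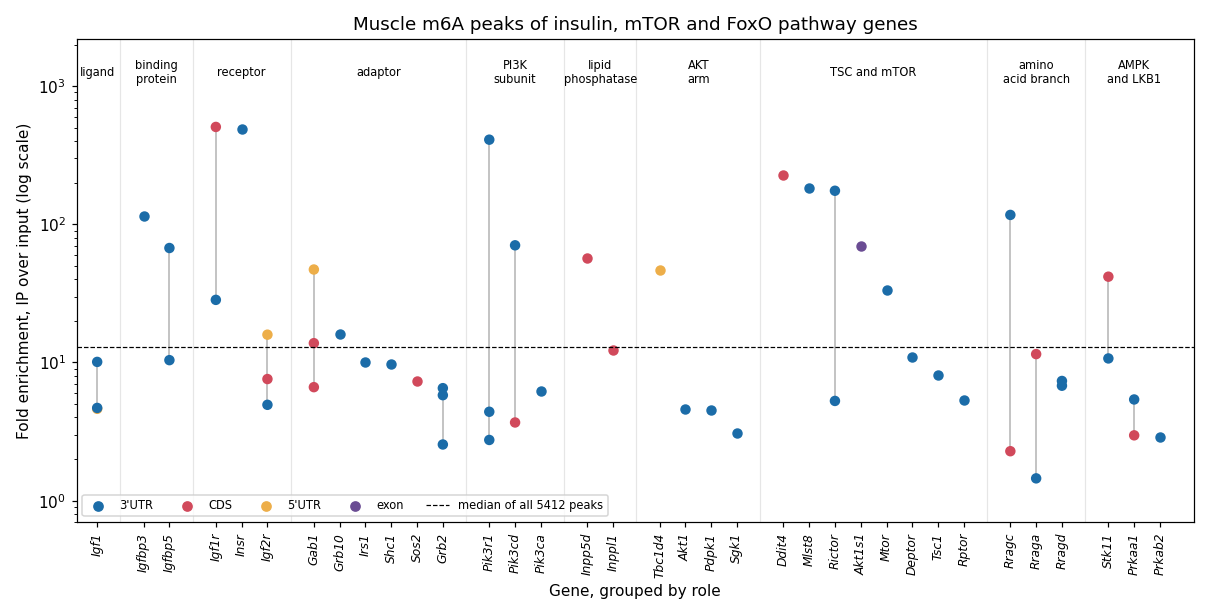
Fold enrichment of IP over input (log scale) of the 54 muscle peaks, by gene and role; each point is 1 peak coloured by its listed class, grey lines join the peaks of a gene, and the dashed line is the median of all 5412 peaks (12.9). Igf1r, Insr and Pik3r1 stand highest at 507, 490 and 410, and the lowest point is the 3′UTR peak of Rraga at 1.45.

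Among the ligands and binding proteins, Igf1 and 2 binding protein genes were listed in muscle. Igf1, which encodes the growth factor that muscle and infiltrating cells release after injury, had 3 peaks. The 5′UTR peak (GRCm38 chr10:87859127-87859306) had a fold enrichment of 4.62, and the 3′UTR peaks at chr10:87933841-87934080 and chr10:87934290-87934529 had 4.69 and 10.1. None of the 3 held a GGAC site, and the 5′UTR peak also overlaps Igf1os, an antisense gene. The libraries were made with a kit that keeps the strand, but whether the authors counted reads by strand was not given in the sources used here, so reads of both genes may have entered this value. Igfbp3, whose product carries IGFs in the circulation, had a single 3′UTR peak (chr11:7207129-7207725, 418 bp of exon) with a fold enrichment of 115. Igfbp5, the binding protein gene tied to myoblast differentiation, had the pathway genes' longest peak by exon length, 1884 bp of its 3′UTR (chr1:72858798-72860681), with a fold enrichment of 67.4 and 11 GGAC sites. A second Igfbp5 peak nearer the gene end (chr1:72858410-72858649) had 10.4 and no GGAC site.

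The receptors carried the strongest peaks. Igf1r, the IGF1 receptor tyrosine kinase, had a CDS peak (chr7:68226023-68226652, 630 bp) with a fold enrichment of 507, which ranked 116 of 5412 peaks, and a 3′UTR peak (chr7:68230670-68231060) of 28.4. The CDS peak held 5 GGAC sites on the plus strand, whose adenines lie at 68226214, 68226263, 68226353, 68226409 and 68226585 on chromosome 7. Insr, the insulin receptor, had 1 peak of 929 bp in the 3′UTR (chr8:3153493-3154421) with a fold enrichment of 490, rank 124. Its 5 GGAC sites lie on the minus strand at 3154410, 3154403, 3154318, 3154073 and 3153948 of chromosome 8, with the first 3 within the 5′-most part of the peak. Igf2r, which clears IGF2 and sorts lysosomal enzymes and has no kinase domain, was far lower, with 15.9 in the 5′UTR (chr17:12769424-12769664), 7.59 in the CDS (chr17:12683514-12684084, 5 GGAC sites) and 4.94 in the 3′UTR (chr17:12683035-12683275, no site). Its 5′UTR peak overlaps Airn, a noncoding gene of the opposite strand.

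The adaptors that couple the receptors to PI3K and Ras had low to middling peaks, with a median of 9.89 over the strongest peaks of 6 genes. Gab1, a docking protein that recruits PI3K and phosphatases, stood highest. Its 5′UTR peak (chr8:80879592-80880041) had a fold enrichment of 47.1, and its CDS peaks had 13.8 (chr8:80788518-80788996, 5 GGAC sites) and 6.63 (chr8:80784627-80784866). Grb2, the adaptor that links receptors to the Ras exchange factor, had 3′UTR peaks close together, of 5.8 (chr11:115644432-115644699), 2.55 (chr11:115645205-115645384) and 6.52 (chr11:115645532-115645949). Grb10, an adaptor that restrains the insulin receptor, had 16.2 in the 3′UTR, Irs1, the main docking protein of both receptors, had 10, and Shc1, which feeds the Ras branch, had 9.78. Sos2, a Ras exchange factor, had 7.39 in the CDS.

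Of the PI3K subunits, Pik3r1, which encodes the main regulatory subunit, had a peak of 1111 bp in the 3′UTR (chr13:101683922-101685032) with a fold enrichment of 410, rank 168, and 6 GGAC sites on the minus strand, at 101684754, 101684738, 101684704, 101684528, 101684463 and 101684285 of chromosome 13. Its other 3′UTR peaks had 2.75 (chr13:101681553-101681853) and 4.4 (chr13:101682183-101682333). The strongest peak of Pik3r1 was 149 times its weakest, the widest range within a pathway gene. Pik3cd, a catalytic subunit found mainly in leukocytes, had 70.5 in the 3′UTR (chr4:149649408-149650725, 9 GGAC sites) and 3.68 in the CDS (chr4:149654886-149655430). Pik3ca, the catalytic subunit of insulin signalling in muscle, had 6.18 in the 3′UTR, where the listed peak also overlaps Kcnmb3.

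The lipid phosphatases remove a phosphate from the lipid that PI3K makes. Inpp5d, expressed mainly in blood cells, had a CDS peak of 1558 bp of exon (chr1:87715299-87720268) with a fold enrichment of 57.1 and 7 GGAC sites. The listed peak also overlaps Gm33470. Inppl1, the broadly expressed relative of Inpp5d, had 12.4 in the CDS. Neither Inpp5d nor Pik3cd was listed in C2C12, which was also the case for 20 of the 35 muscle-listed pathway genes and 2361 of all 3975 muscle-listed genes. Of 7 macrophage and leukocyte marker genes, 3 (42.9%, against 16.9% of all protein-coding genes: Ptprc, Itgam and Cd14) were listed in muscle. In C2C12 1 was listed (Cd14, 14.3% against 17.6%). The fold enrichment in muscle was 194 for Cd14, 3.28 for Ptprc and 2.81 for Itgam. The part of such cells in the peaks of Inpp5d and Pik3cd was not tested.

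Taking each gene at its strongest peak, the AKT arm had the lowest median of the roles, 4.54 over 4 genes, with AMPK and LKB1 next at 5.4. Akt1 had 4.58 in the 3′UTR (chr12:112653941-112654539). Pdpk1, the kinase that phosphorylates the activation loop of AKT, had 4.5 in the 3′UTR (chr17:24075657-24075867) and no GGAC site. Sgk1, a kinase related to AKT, had 3.07 over 121 bp, the shortest peak of the pathway genes (chr10:21998827-21998947). Tbc1d4, the AKT substrate that holds back glucose transporter vesicles, was higher than these, with 46.8 in the 5′UTR and 6 GGAC sites. The phosphatase genes Phlpp1 and Phlpp2, whose products remove phosphate from AKT, were listed in C2C12 and not in muscle.

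The TSC and mTOR genes were the role with most listed genes in muscle, and 3 of the 8 had a fold enrichment of 175 or higher (Ddit4, Mlst8 and Rictor). Ddit4, a stress-induced inhibitor of mTORC1, had a CDS peak (chr10:59950204-59951353, 863 bp of exon) of 229 with 5 GGAC sites. Mlst8, a subunit of both mTOR complexes, had a 3′UTR peak (chr17:24475486-24476145) of 184 with 7 sites in 566 bp. Rictor, the subunit that defines mTORC2, had 3′UTR peaks of 175 (chr15:6795989-6797255, 5 sites) and 5.27 (chr15:6798154-6798483, no site). Akt1s1, an inhibitory subunit of mTORC1 that AKT phosphorylates, had the only peak listed in the class exon (chr7:44850561-44855212, 1402 bp over 4 exon blocks) with 70.2. Mtor itself had 33.7 in the 3′UTR with 8 GGAC sites. Lower values were listed for the 3′UTR peaks of Deptor (10.9), an inhibitor of mTOR, of Tsc1 (8.1), part of the complex that switches Rheb off, and of Rptor (5.35), the subunit that defines mTORC1.

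In the amino acid branch, Rag GTPases bring mTORC1 to the lysosome. Rragc had a 3′UTR peak of 117 (chr4:123935655-123936639, 985 bp, 3 GGAC sites) and a CDS peak of 2.28 (chr4:123919872-123920111). Rraga had 11.5 in the CDS (chr4:86575728-86576327) and 1.45 in the 3′UTR (chr4:86576896-86577045), the latter the only pathway peak under 2. Rragd had 3′UTR peaks of 6.79 (chr4:33018772-33019190) and 7.35 (chr4:33020237-33020416), which gave it the lowest ratio of strongest to weakest peak among the pathway genes. Among the energy-sensing genes, Stk11, which encodes the AMPK-activating kinase LKB1, had a CDS peak (chr10:80115803-80117757, 1198 bp of exon) of 41.8 with 17 GGAC sites, the most of any pathway peak, and a 3′UTR peak of 10.7 (chr10:80129939-80130682) that overlaps Cbarp. Prkaa1, a catalytic AMPK subunit, had 2.97 in the CDS (chr15:5178707-5178916) and 5.4 in the 3′UTR (chr15:5180825-5181034). Prkab2, a regulatory AMPK subunit, had the lowest strongest peak, 2.9 in the 3′UTR (chr3:97672074-97672224), with no GGAC site and a peak p-value of 0.0044, the highest deposited p-value among the 54 peaks. The p-value was listed as 0 for 8 of the 54.

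Most muscle peaks of the pathway genes lay in the 3′UTR. The class 3′UTR held 36 of the 54 peaks, or 66.7% (95% Wilson interval 53.4 to 77.8%, counting error only), against 48.0% of all 5412 peaks. The CDS held 13 (24.1% against 31.9%), the 5′UTR 4 (7.41% against 5.14%) and the class exon 1 (1.85% against 14.9%). All 57 pathway genes are protein-coding in RefSeq, whereas 3705 of the 3975 genes in the muscle table are. Shares over protein-coding genes alone were not computed, so part of the gap in the 3′UTR share goes with the class exon. The middle of the 3′UTR peaks lay between 314.5 and 6777 bp from the annotated gene end, with a median of 1419 bp. In C2C12 the 3′UTR held 14 of 39 peaks, 35.9% (22.7 to 51.6%) against 25.9% of all 5433, and coding exons held 20 (51.3% against 52.6%). Introns held 1 (2.56% against 12.4%), and the interval of the 3′UTR share takes in the share of the whole table. The tables use separate annotations, so the shares are to be set against their own whole table and not against each other.

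**Figure D2:**
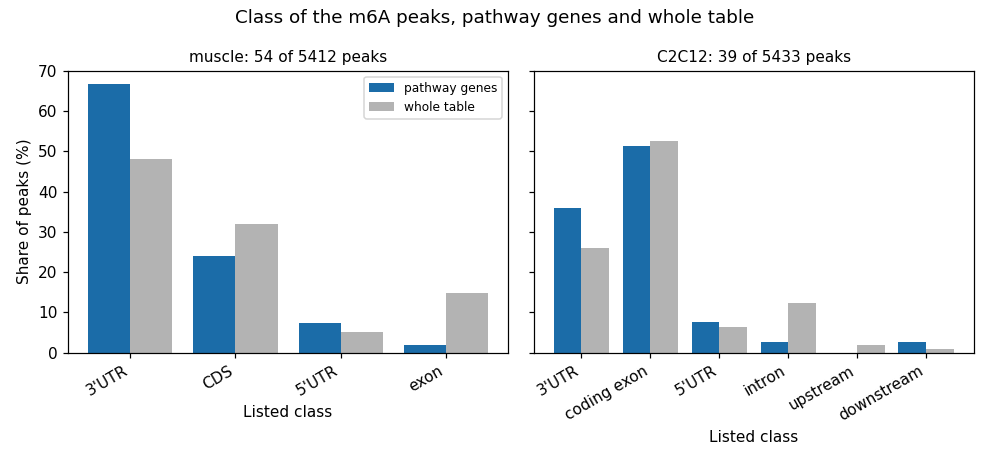
Share of peaks (%) in each listed class for the pathway genes (blue) and the whole table (grey), in muscle (54 of 5412 peaks) and in C2C12 (39 of 5433 peaks). The 3′UTR bar of the pathway genes is above that of the whole table in both panels, at 66.7% against 48.0% in muscle and 35.9% against 25.9% in C2C12. The whole tables also hold genes not annotated as protein-coding in RefSeq, and the pathway genes do not.

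In both main classes the pathway peaks had a lower median than the table, and CDS peaks were above 3′UTR peaks in both. In the 3′UTR the median fold enrichment of the pathway peaks was 7.725 against 9.94, and in the CDS it was 11.5 against 26.65. The 4 peaks in the 5′UTR, in Igf1, Igf2r, Gab1 and Tbc1d4, had a median of 31.35 against 9.535, and their values from 4.62 to 47.1 lie far apart. Over all peaks the medians were 9.89 and 12.9, and 20 of the 54 pathway peaks were at or above the median of the table.

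GGAC sites, the letters listed with the peaks on the strand of the transcript, were about as frequent as elsewhere. At least 1 site was listed in 39 of the 54 peaks, 72.2% (59.1 to 82.4%), against 70.6% of all peaks, and the density was 5.34 against 4.63 sites per 1000 bp of exon. All 13 CDS peaks held a site, against 84.5% of CDS peaks in the table, with a density of 7.49 against 5.04. Of the 36 3′UTR peaks 22 held one, 61.1% against 62.0%. The densest peaks were those of Stk11 (14.2 sites per 1000 bp), Mlst8 (12.4), Mtor (10.7) and Gab1 (10.4, its stronger CDS peak).

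Peaks with a site had a median fold enrichment of 12.4 and the 15 peaks without one 5.8, where the whole table had 21.9 and 5.89. Of these 15, 14 lay between 2.9 and 10.9. The exception was the Igfbp3 peak at 115, which ranked 27 among the 1592 peaks of the table that have no GGAC site. A missing site means only that these letters were not listed in the peak.

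**Figure D3:**
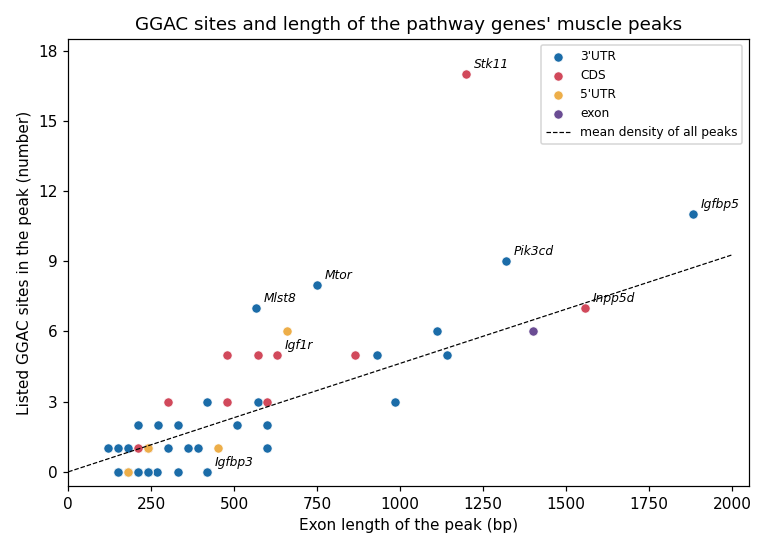
Number of listed GGAC sites against exon length (bp) for the 54 muscle peaks, coloured by class; the dashed line is the mean density of all 5412 peaks (4.63 sites per 1000 bp). Stk11 lies far above the line with 17 sites in 1198 bp, and Igfbp3 lies on the axis with 0 sites in 418 bp.

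A larger share of the pathway genes than of all listed genes had several peaks. The counts are small, no interval was computed for them, and the whole tables also hold genes not annotated as protein-coding in RefSeq. In muscle 14 of 35 had 2 or more (40.0% against 25.1% of all listed genes), and in C2C12 10 of 23 (43.5% against 25.8%). Within the 14 muscle genes the strongest peak was longer than any other peak of the gene in 9 (64.3% against 73.3% of such genes in the table) and, with ties counted, at least as long in 11 (78.6% against 76.6%). It held more GGAC sites than any other peak of the gene in 9 (64.3% against 58.0%) and, with ties counted, at least as many in 10 (71.4% against 76.6%), so for both measures the order of the pathway genes and the table turns with the treatment of ties. The ratio of the strongest to the weakest peak had a median of 6.79 against 4.21 and ran from 1.08 in Rragd to 149 in Pik3r1, with 51.3 in Rragc and 33.2 in Rictor next.

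In C2C12 positions, classes and distances to the transcript start were deposited and no peak strength, so genes are described by the number and place of their peaks. Irs1, the docking protein of the insulin and IGF1 receptors, had the most, with 5 peaks: 1 in the 5′UTR with its centre 540 bp from the transcript start, 3 in the coding exon at 1569, 2957 and 4080 bp, and 1 in the 3′UTR at 53920 bp. In muscle only a 3′UTR peak of this gene was listed, and peaks not called different between genotypes would be missing there. Igf1r had coding exon peaks at 51851 and 274002 bp and a 3′UTR peak at 279511 bp. Igfbp5 had 3 peaks in the 3′UTR at 12602, 14478 and 15597 bp, the second of them 1112 bp long, the longest C2C12 peak of the pathway genes. Pik3r1 had a 5′UTR peak at 10414 bp and 3′UTR peaks at 83392 and 83821 bp.

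Among the genes with 2 C2C12 peaks, Insr had a coding exon peak at 123851 bp and a 3′UTR peak at 125749 bp. Ddit4 had a coding exon peak at 954 bp and a 3′UTR peak at 1303 bp. Rragc had 3′UTR peaks at 18442 and 18887 bp. Foxo1, the FoxO factor that drives atrophy genes in muscle, had adjoining coding exon peaks at 77472 and 77867 bp. Irs2, the second main docking protein, had a coding exon peak at 1618 bp and a peak downstream at 21562 bp. Sos1, a Ras exchange factor, had coding exon peaks at 46392 and 82162 bp. Foxo1, Irs2 and Sos1 were 3 of the 8 genes listed in C2C12 and not in muscle, with Foxo3, Rps6kb1, Ulk2, Phlpp1 and Phlpp2, each of which had 1 peak, in the 3′UTR for the first 3 and in a coding exon for the phosphatases.

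The 15 genes listed in both tables had higher muscle peaks than the 20 listed in muscle alone, with a median fold enrichment of the strongest peak of 46.8 (6.18 to 507) against 10.5 (2.9 to 184). The table as a whole runs the same way, with 39.85 for the 1614 genes in both and 13.2 for the other 2361. Positions in the C2C12 table were not on GRCm38, so peaks were set beside each other by distance from a start, each in its own build. For muscle this start was the 5′ edge of the RefSeq gene span. For C2C12 it was the start of the listed transcript, so the starts can differ for a gene with several transcripts. By this measure the strongest muscle peak overlapped a C2C12 peak in 8 of the 15 genes (53.3%), against 830 of 1563 genes (53.1%) over the tables. These were Igf1r, Insr, Pik3r1, Ddit4, Rragc, Igfbp5, Stk11 and Rraga, with a median fold enrichment of 173 in muscle, against 101 for overlapping genes in the whole table.

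The Igf1r CDS peak ran from 273766 to 274395 bp in muscle, and the centre of the C2C12 coding exon peak lay at 274002 bp. The Insr 3′UTR peak ran from 125228 to 126156 bp, with the C2C12 3′UTR peak centred at 125749 bp. The Pik3r1 peak ran from 83185 to 84295 bp and took in both 3′UTR centres of C2C12. The pathway genes of highest fold enrichment in muscle, Igf1r, Insr and Pik3r1, thus had a C2C12 peak at about the same place. The Ddit4 peak, next in fold enrichment, covered 19.9 to 74.7% of the gene's span and took in both C2C12 peaks. With so wide a peak in a short gene, this overlap says little about place. The same limit holds for Rraga, whose strongest muscle peak covered 3.41 to 40.6% of the gene's span. The other 7 genes (Rictor, Tbc1d4, Inppl1, Irs1, Shc1, Tsc1 and Pik3ca) had a median of 10 in muscle, against 13.8 in the table. Inppl1 and Irs1 missed by 219.5 and 334.5 bp, and Tbc1d4 by 163516 bp, with its peak in the 5′UTR in muscle and in a coding exon far downstream in C2C12. Muscle peaks not called different between genotypes are not listed, so such a gap does not show that the place differs between muscle and C2C12. When the distance was taken from any annotated start of a gene, Inppl1 overlapped too, which made 9 of 15 (60%) against 925 of 1563 (59.2%) over the tables.

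**Figure D4:**
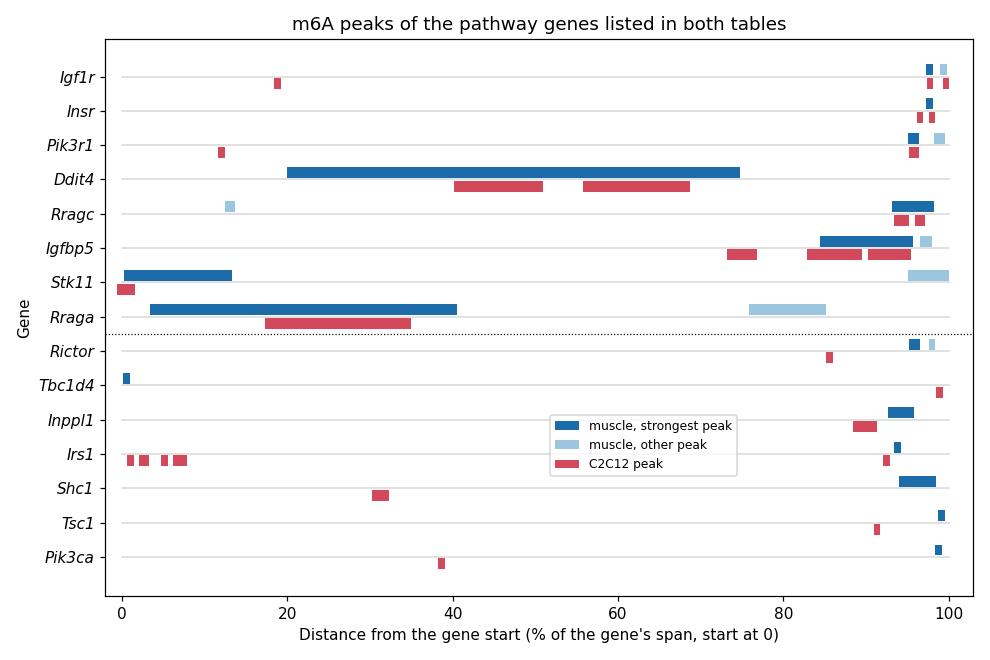
Peaks of the 15 genes listed in both tables along the gene, as distance from the gene start in % of the gene's span; dark blue bars are the strongest muscle peak, light blue the other muscle peaks and red the C2C12 peaks, and bars narrower than a fixed minimum are widened to it. Above the dotted line are the 8 genes whose strongest muscle peak overlaps a C2C12 peak, from Igf1r to Rraga, and below it are the other 7. C2C12 distances are counted from the start of the listed transcript.

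The rest of the pathway was described with a list of 91 further genes, also chosen with earlier results of these data known. Of these 39 (42.9%) were listed in muscle and 40 (44.0%) in C2C12, with 21 in both, so both shares were above the 16.9% and 17.6% of all protein-coding genes. Adaptors and phosphatases of the receptors and further AMPK-related genes were each listed in muscle with 6 of 9, and in C2C12 with 7 and 4. The regulators of amino acid sensing had the lowest share of these groups in muscle, 6 of 23 (26.1%), and 7 were listed in C2C12. The median of the strongest muscle peaks over the 39 genes was 22.0. The highest were Tti1 (212, in the CDS), which helps mTOR complexes assemble, Acacb (187, 3′UTR), the AMPK substrate that limits fatty acid oxidation in muscle, and Wdr24 (140, class exon), a subunit of the complex that relays amino acid signals to the Rag GTPases. In C2C12 most peaks were listed for Pik3c2a (5), a class II PI3K, and for Larp1 and Igfbp2 (3 each), an mRNA-binding target of mTORC1 and an IGF binding protein.

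The labelled cell type was set against marker genes, with the limit that a listing shows a called peak and not expression. Over all 31 marker genes, 12 (38.7%) were listed in muscle and 9 (29.0%) in C2C12. Of 6 muscle stem cell and myoblast markers, 4 (66.7%, against 16.9% of all protein-coding genes) were listed in muscle. They were Pax7 at 39, Myod1 at 13.5, Myog at 6.82 and Des at 2.12. In C2C12 4 were listed (66.7% against 17.6%: Pax7, Myod1, Cdh15 and Des). The paper treats myogenin, the product of Myog, as a marker of early differentiation, so these markers do not single out stem cells. Of 9 muscle fibre markers 2 (22.2%, against 16.9% of all protein-coding genes), Ttn and Ryr1, were listed in muscle and 0 in C2C12, with 27 Ttn peaks and fold enrichments of up to 8.13. Macrophage and leukocyte markers were listed in muscle as given above, as were 2 of 5 fibro-adipogenic markers (Pdgfra at 49.7 and Col1a1 at 3.52) and 1 of 4 endothelial markers (25% against 16.9%, Cdh5 at 155). In C2C12, a myoblast line, 0 of 4 endothelial markers were listed. There, 4 of 5 fibro-adipogenic markers (Pdgfra, Col1a1, Col1a2 and Col3a1) were listed, so a listing of these fibro-adipogenic genes does not show which cell type gave the RNA. With so few markers per cell type, shares such as 1 of 4 and 2 of 9 are close to the background, and fewer transcripts per cell and fewer cells of a type cannot be told apart in such bulk RNA. The part of these cells in the peaks of the pathway genes was not tested.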

How the data were processed

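m6A MeRIP-Seq libraries were grouped by their labels into IP and input libraries of METTL3 cKO muscle, CTL muscle (day 2 after CTX) and C2C12. Read mapping and peak calling were done by the authors, who deposited a table of peaks for each of muscle and C2C12. Their processing notes name TopHat, MACS2 and mm10 with no role, and the column names of the muscle table are those of exomePeak. Settings are not given in the sources used here. For each muscle peak the authors deposited a fold enrichment, a ratio of IP over input, a p-value and the listed GGAC sites. The muscle table also has 3 columns of the authors' own comparison of cKO with CTL (log fold, p and FDR), which were not used, so no direction between genotypes is given here. The C2C12 table gives positions, classes and distances to the transcript start. Neither table holds counts, so depth and precision per library are unknown. There were 0 columns with values of a single library.

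Genes were matched by symbol, older symbols included, and 0 peaks were taken by an older symbol. Pdk1 of the tables is another gene and was not taken for Pdpk1. Each gene was represented by its peak of highest fold enrichment. All 54 muscle peaks overlapped the GRCm38 span of their RefSeq gene. Of 3953 C2C12 genes only 350 had a start within 1000 bp of the GRCm38 gene span, so C2C12 positions were used only as distances. Of 94 listed sites inside RefSeq promoter windows, 82 read GGAC there. No peak sequence is printed. Shares carry 95% Wilson intervals, which cover counting error only. The choice of the strongest peak, the site position and the matching of older symbols were tested on simulated data. The software was scipy 1.17.1, numpy 2.4.6 and pandas 2.3.3 under Python 3.11.15, and plots were made in matplotlib 3.10.9.

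The genes and lists were chosen with earlier results of these data known, so no p-value is given. All listed genes were accounted for by role. Full values were given for the 10 genes of highest and the 3 of lowest fold enrichment in muscle, the genes with 2 or more peaks in either table and the gene with the longest peak, and of the further pathway genes for the 3 highest in muscle and the 3 with most peaks in C2C12. Alternatives were current symbols only, the choice of peak per gene, genes counted in place of peaks and limits on fold enrichment. Others were the removal of intron and intergenic peaks, the length used for site density and, chosen after seeing the data, the start used for distances.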

Additional observations from a re-analysis of the deposited data

How the results depend on the processing

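Of 21 alternatives run on 9 results, 16 kept the value within the limits set, a factor of 1.5 for counts and the 95% interval for shares, densities and medians. Some of the 16 could not have moved. Current symbols only changed nothing because 0 peaks were taken by an older symbol. A limit of 2 on fold enrichment changed nothing because the strongest peak of every muscle-listed pathway gene was 2.9 or higher. The other 5 alternatives went outside the limits. With only peaks at or above the table's median fold enrichment, the pathway genes listed in muscle fell from 35 to 18 (31.6%, against 10.1% of all protein-coding genes at this limit) and those in both tables from 15 to 9 (15.8% against 5.15%), since fewer peaks were counted. With the same limit the share of peaks with a GGAC site rose from 72.2% to 95% (85.8% of all peaks there) and the density from 5.34 to 6.33 sites per 1000 bp (4.87), and the cause was not tested. Over the genomic span in place of the exon length the density was 4.03, since introns lengthen the span. The 3′UTR share was 55.0% at or above the median (41.2% of all peaks there). No paired analysis was possible because each table gives 1 value per peak over all its libraries, and for the same reason no library could be left out. The muscle table lists only peaks called different between genotypes, so absence from it is no sign that a gene lacks m6A.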
